A study of Mus musculus with 48 samples.

Results

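The Kcn genes encode the pore-forming and auxiliary subunits of potassium channels. They were taken as all probes on the array, control spots aside, whose gene name begins with Kcn. This rule used no measured value. It found 143 probes of 95 gene names, among 55681 probes of 34844 gene names, and 39 of the 95 genes had several probes. The genes are described by the letter of their subfamily. The rule also takes in Kcnq1ot1, a long noncoding RNA transcribed from within Kcnq1 that encodes no channel.

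Potassium channels let potassium leave the cell and so hold the resting potential, end action potentials and set how fast a neuron can fire again. Voltage-gated (Kv) subunits open on depolarization, and those of the a, b, c, d and q letters differ in how fast and at what voltage they do so. Inward rectifiers (j) and the tandem-pore leak channels (k) act near rest, in neurons and in glia, while the ma, n, t and u genes encode channels opened by calcium or sodium inside the cell. Auxiliary subunits (ab, ip, e, mb) change the gating or trafficking of the pore. In blood, Kcna3 is known as a potassium channel of T cells, and Kcnn4 as the calcium-activated channel of red cells and lymphocytes.

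RNA came from whole blood pellets and from the medial prefrontal cortex (mPFC) of female C57BL/6J mice, 17 weeks old. Arrays of both tissues with the same group and replicate number were taken as the same mouse. That gives 24 mice, with 1 array for each tissue of each mouse. There were 6 control mice (sham operation, no stress), 6 CUMS mice (sham operation, then chronic ultra-mild stress), 6 OVX mice (ovariectomized, no stress) and 6 OVX+CUMS mice (ovariectomized, then stressed). Ovariectomy removes the ovaries, and CUMS is a weekly schedule of mild stressors such as cage tilt, soiled bedding and altered lighting. The mouse groups differed by surgery and stress alone as far as the labels say, and the estrous stage of the sham-operated mice is not given in the sources used here.

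Values are log2 signals of the scanner software minus the 75th percentile of the same array, so a value of 1 lies 1 log2 unit above that percentile. Arrays sat 8 to a slide, and slides did not hold the groups evenly. In each tissue, slide 1 held all 6 control mice and 2 CUMS mice, slide 2 held 4 CUMS and 4 OVX mice, and slide 3 held 2 OVX and all 6 OVX+CUMS mice. No slide held both sham-operated unstressed and ovariectomized stressed mice, and no slide held both tissues, so tissue and slide cannot be told apart. The 75th percentile of signal was 572 to 689 in mPFC and 54.9 to 192 in blood, with group medians in blood of 110 for control, 90.1 for CUMS, 139 for OVX and 125 for OVX+CUMS mice. Probes well above background numbered 31558 to 38070 per array in mPFC and 23606 to 34862 in blood, and none was saturated. The scanner software rated every mPFC array as in range. In blood it did so only for control replicates 1, 3 and 4, and marked all other blood arrays for evaluation. Array quality in blood was thus not even between control and treated mice, and its part in the blood differences was not tested. All 5 neuron markers fixed for the check were detected in mPFC, and so were all 5 markers of striatum. Of the 5 choroid plexus markers 3 were detected there, while Ttr, the defining one, and Clic6 were not. In blood all 6 erythroid markers were detected. Of the 5 neuron markers, Rbfox3, Syt1, Tubb3 and Slc17a7 were not detected in blood. The other 1 was, at 6.74 to 7.47 log2 units above the 75th percentile in control mice.

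Each measurement is the signal of a single 60-base probe, and several results below turn on probes of the same gene that did not move together. A stretch of 30 bases is shown for the probes on which those results rest, 5′ to 3′, in lower case, with capitals only where a tandem repeat of at least 9 bases lies. Coordinates are those of the array annotation, build mm9, for the whole probe.
Kcna6 probe A_52_P130787, chr6:126658424-126658483, minus strand: ttgctggtctgatcaaaggagaggaggtgt
Kcna6 probe A_55_P2177273, given without a position: tgtgcctcagttccccccacccattaaatg
Kcnd1 probe A_55_P1965478, chrX:7413570-7413629, plus strand: aactccagcttgggtactccgtgcctcctc
Kcnd1 probe A_66_P126157, chrX:7415303-7415362, plus strand: ttagtcctttgtgagagactcactctttgt
Kcna4 probe A_55_P2084251, chr2:107138207-107138266, plus strand: ttttgtgtaTGTGTGTGTGTGtctgtgtgt
Kcnk9 probe A_55_P2122195, chr15:72342761-72342820, minus strand: ATGATGATGATGtcgtcgataatgttgttg
Kcnh8 probe A_55_P2012679, chr17:53044502-53044561, plus strand: gagagtgatgtaagtcccctttccaattag
Repeats of that length occurred in 5 of the 143 Kcn probes, which is 3.5%, against 2.92% of all probes. The Kcna4 and Kcnk9 probes were the 2 that held one among the 24 Kcn probes detected in both tissues, 8.33% against 4.94% of all probes detected in both. Of 142 Kcn probes with a position, Kcnh8 was the only gene, out of 39 with several placed probes, whose probes lay on both strands: the probe shown is on the plus strand and its other 2 probes are on the minus strand.

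A probe was called detected in a tissue when it stood well above background on all 24 arrays and passed a signal of 50 on at least 2. In mPFC 100 of the 143 Kcn probes were detected, covering 74 genes, or 69.9% against 50.9% of all probes. In blood 28 probes of 28 genes were detected, or 19.6% against 37.3% of all probes. Of these, 24 probes were detected in both tissues, 4 in blood alone and 39 in neither. The 4 found in blood alone were Kcnh8, Kcnj13, Kcnj5 and Kcnn4. The Kcnj13 and Kcnj5 probes missed the mPFC filter narrowly, being well above background on 23 and 21 of the 24 mPFC arrays. The mean processed signal of that Kcnj13 probe was 58 in mPFC and 29.8 in blood.

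Of the voltage-gated letters, 51 of 66 probes were detected in mPFC, or 77.3%. The calcium- or sodium-activated channels had 10 of 13 probes detected and the leak channels 12 of 16. The inward rectifiers had 11 of 20 and the auxiliary subunits, here and below counted with Kcnrg, 15 of 26. In blood the leak channels had the highest share, with 6 of 16 probes or 37.5%, followed by 3 of 13 calcium- or sodium-activated probes, 13 of 66 voltage-gated probes, 3 of 26 auxiliary probes and 2 of 20 inward rectifier probes. No probe of the ab, b, f, g, mb, s or t letters was detected in blood. Genes detected in neither tissue numbered 17, among them Kcne1 and Kcne2 (auxiliary subunits known from heart and epithelia), Kcnj1 (the rectifier of the kidney tubule), and Kcnmb1 and Kcnmb3 (BK auxiliary subunits). Some missed the filter narrowly: both Kcnmb2 probes were well above background on 23 of the 24 mPFC arrays and the Kcnj2 probe on 22, and the Kcnj1 probe on 22 of the 24 blood arrays.

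Every one of the 24 probes detected in both tissues differed in level between mPFC and blood of the same mouse, 8 higher and 16 lower in mPFC. Nearly all probes did so: 96.3% of the 17545 probes detected in both passed the same limma test, 41.7% higher and 54.6% lower in mPFC. The median difference was -0.94 over the Kcn probes and -0.43 over all probes. In bulk tissue, fewer cells that carry a transcript and less of it per cell cannot be told apart. The scale between tissues is itself uncertain, since the median over all probes became 1.36 when arrays were aligned on spike-in probes and 2.03 after quantile normalization within each tissue. The latter does not align the tissues with each other and keeps their difference in brightness. Both moved the Kcn probes by a nearly common amount: Kcnip3 from 7.14 to 8.93 and 9.60, and Kcnk9 from -6.19 to -4.40 and -3.73. A kept or changed sign therefore reflects the size of the difference. The split of higher to lower calls among the Kcn probes then became 15 to 6 and 19 to 5.

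The higher mPFC levels named next kept their direction on each of these scales. They could not do otherwise, since both alternatives raised every Kcn probe in mPFC against blood. Kcnip3, a calcium-binding KChIP subunit of A-type channels, was 7.14 ± 0.04 log2 units (SE, n = 24 mice) above blood. Kcnh3, an ether-a-go-go family channel of forebrain neurons, was 5.32 above, and Kcnma1, the pore of the BK channel, 4.30 above. Kcnc1 (a fast-spiking channel) was 3.33 and Kcnd3 (an A-type channel) 1.83 above. Kcnk3 and Kcnk6, leak channels, were 0.44 and 0.16 above. Lower mPFC levels that also kept their direction were Kcnk9 at -6.19 ± 0.07, Kcnn3 at -4.14, Kcne1l A_55_P2172832 at -3.48, Kcna7 A_55_P2090142 at -2.80 and Kcna5 A_55_P2106891 at -2.57. After quantile normalization the Kcna7 and Kcna5 differences shrank to -0.32 and -0.10. The other 11 probes, among them Kcna3 at -0.80 and Kcnk16 at -1.97, lay below 0 by the 75th percentile and above 0 after quantile normalization, and 7 of them were also above 0 with spike-in alignment.

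Brain channels that blood did not show can only be given a bound. On 0 of 24 blood arrays were 33 of the mPFC probes well above background, and for 31 of them, of 24 genes, a lower bound of the mPFC excess over blood could be set. Kcna6 probe A_52_P130787 was at least 672-fold higher in mPFC, Kcna1 (a low-threshold axonal channel) at least 235-fold and Kcnip4 at least 226-fold. Kcnj16, a rectifier of glia, was at least 70.8-fold higher and Kcnn2, an SK channel, at least 68.3-fold. Kcnc2 was at least 62.6-fold and Kcnmb4, the neuronal BK auxiliary subunit, at least 51.6-fold higher. Of the M-current subunits, Kcnq5 was at least 16.2-fold and Kcnq3 at least 7.89-fold higher, and Kcns2, a silent modulatory subunit, at least 10.3-fold. The brighter signal here is the mean of all 24 mPFC arrays, and the bound takes the lowest signal called well above background on each blood array, or the probe's own where that was higher. All bounds are on the 75th percentile scale alone.

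**Figure D1:**
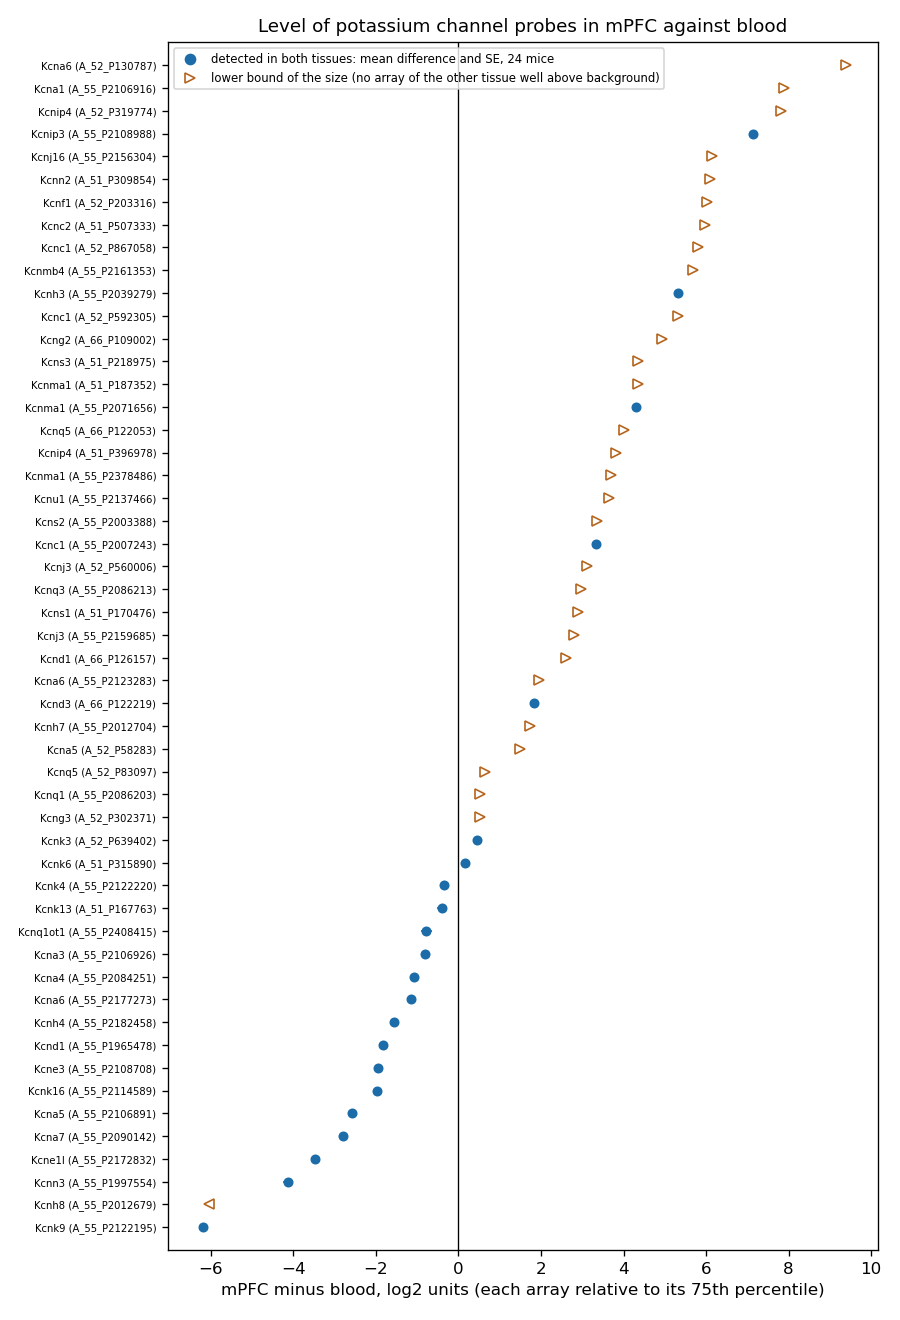
Each row is a Kcn probe, and the x axis is its level in mPFC minus that in blood in log2 units. Filled circles are mean differences over 24 mice with their SE (mostly within the symbol), and open triangles are lower bounds of the size, from Kcna6 A_52_P130787 at the top to Kcnh8 near the bottom.

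In 3 genes a probe with such a bound stood opposite to another probe of the gene. Kcna6 was at least 672-fold higher in mPFC by A_52_P130787 and at least 3.84-fold higher by A_55_P2123283, but differed by -1.14 ± 0.05 log2 units by A_55_P2177273. Kcnd1, an A-type channel, was at least 6.1-fold higher by A_66_P126157 and differed by -1.84 ± 0.06 by A_55_P1965478. Kcna5 was at least 2.79-fold higher by A_52_P58283 and differed by -2.57 ± 0.05 by A_55_P2106891. Of the 3 lower readings, that of Kcna5 kept its sign on all scales, but was -0.78 with spike-in alignment and -0.10 after quantile normalization. Those of Kcna6 and Kcnd1 rose to 1.33 and 0.64 after quantile normalization. Kcne1l, Kcnk4 and Kcnn3 also had a probe that was lower in mPFC beside a detected mPFC probe with little blood signal and no bound. For Kcne1l A_51_P160673 the mean processed signal was 403 in mPFC and 2.86 in blood, for Kcnk4 A_55_P2095498 169 and 3.6, and for Kcnn3 A_51_P508300 40.1 and 3.27. The blood level of a gene named by such a pair depends on which probe is read.

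In the other direction, Kcnh8, an ether-a-go-go family channel, was at least 65.6-fold higher in blood on the 75th percentile scale, with mean processed signals of 161 in blood and 7.33 in mPFC. The spike-in and quantile scales move the median over all probes toward mPFC, and this bound was not computed on them. Its blood values spanned 0.36 to 1.49 (median 0.70) for control, -0.71 to 1.58 (0.76) for CUMS, -0.93 to 0.88 (0.05) for OVX and -0.16 to 1.41 (0.76) for OVX+CUMS mice. The 4 groups overlapped throughout. This is the probe on the strand opposite to the other 2 Kcnh8 probes, neither of which was detected in either tissue.

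Ovariectomy in mPFC was measured as the mean of the 12 ovariectomized mice minus that of the 12 sham-operated mice, with stress in the model. At an adjusted p under 0.05 in limma, 24 of the 100 detected Kcn probes passed, against 30.9% of all detected probes. They were 14 higher and 10 lower, against backgrounds of 19.1% higher and 11.7% lower, shares below or near those of all probes. The median change was 0.05 over the Kcn probes and 0.04 over all probes. The split moved with scaling, to 24 higher and 11 lower with normexp background correction, 8 and 10 with the percentile taken over detected probes, and 0 and 8 with spike-in alignment. With slide as a block, 0 Kcn probes passed, as did 0 probes of all; 5 passed with slide as a random block.

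Of the 10 falls with OVX, 4 were probes of the voltage-gated a letter. Kcna4, the A-type channel of the Shaker family, spanned 2.36 to 2.59 (median 2.50) for control, 1.89 to 2.36 (1.95) for CUMS, 1.79 to 2.04 (1.92) for OVX and 1.71 to 2.07 (1.87) for OVX+CUMS mice. All 12 ovariectomized mice lay below all control mice, and the CUMS mice reached from one range to the other. The OVX effect was -0.38 ± 0.06 (SE; limma adjusted p = 6.73e-05). By slide, the 6 control mice averaged 2.49 and the 2 CUMS mice beside them on slide 1 averaged 2.34, whereas on slide 2 the 4 CUMS mice averaged 1.92 and the 4 OVX mice 1.95. The level thus changed between slides within the CUMS group, and the OVX effect with slide as a block was -0.03.

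Kcna7 fell by 0.46 (A_55_P2090142, adjusted p = 0.000169) and by 0.28 (A_66_P114700, adjusted p = 0.0165) on the log2 scale, and with slide as a block these were 0.06 and -0.06. Kcnh4, an ether-a-go-go family channel, spanned 0.50 to 0.88 (median 0.64) for control, -0.01 to 0.60 (0.25) for CUMS, -0.05 to 0.18 (0.04) for OVX and 0.00 to 0.43 (0.09) for OVX+CUMS mice. Its OVX effect was -0.37 ± 0.07 (adjusted p = 0.000371) and -0.02 with slide as a block. Kcnk16, a leak channel known from pancreas, fell by 0.32, Kcnj12, an inward rectifier, by 0.19, and Kcng3, a silent subunit, by 0.27. Kcng3 was the only one of the called falls whose estimate grew with slide as a block, to -0.68 ± 0.21, without passing the threshold (adjusted p = 0.512).

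The rises were smaller and spread over more roles. Kcnt1, the sodium-activated Slack channel, spanned 1.29 to 1.49 (median 1.44) for control, 1.34 to 1.67 (1.62) for CUMS, 1.65 to 1.81 (1.73) for OVX and 1.59 to 1.89 (1.82) for OVX+CUMS mice. All ovariectomized mice lay above all control mice, with an OVX effect of 0.26 ± 0.04 (adjusted p = 0.000186), or 0.13 with slide as a block. Kcnk9, a leak channel that sets the resting potential, spanned -3.19 to -2.99 (median -3.02) for control, -3.19 to -2.58 (-3.01) for CUMS, -2.99 to -2.39 (-2.58) for OVX and -2.92 to -2.23 (-2.55) for OVX+CUMS mice. Its OVX effect was 0.40 ± 0.08 (adjusted p = 0.00101), or 0.10 with slide as a block, and the probe holds the repeat shown above.

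Kcnmb4 rose by 0.22 ± 0.05 by A_55_P2161353 (adjusted p = 0.00111), while its other detected probe gave 0.07 (adjusted p = 0.0758). Kcne3, an auxiliary subunit, rose by 0.35 ± 0.10. Of the fast-spiking c letter, Kcnc1 A_55_P2007243, Kcnc2 and Kcnc4 rose by 0.12, 0.12 and 0.14. The other 2 detected probes of Kcnc1 gave -0.14 (A_52_P867058, adjusted p = 0.321) and 0.04 (A_52_P592305, adjusted p = 0.647). Aligned on spike-in probes, the called Kcnc1 and Kcnc2 probes gave -0.01 each. Kcnk3 and Kcnk10, leak channels, rose by 0.15 each. Kcnab2, a beta subunit of the a letter, rose by 0.15. Kcnc4, Kcnc2 and Kcnk3 gave larger estimates with slide as a block, 0.28, 0.20 and 0.35, none past the threshold.

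**Figure D2:**
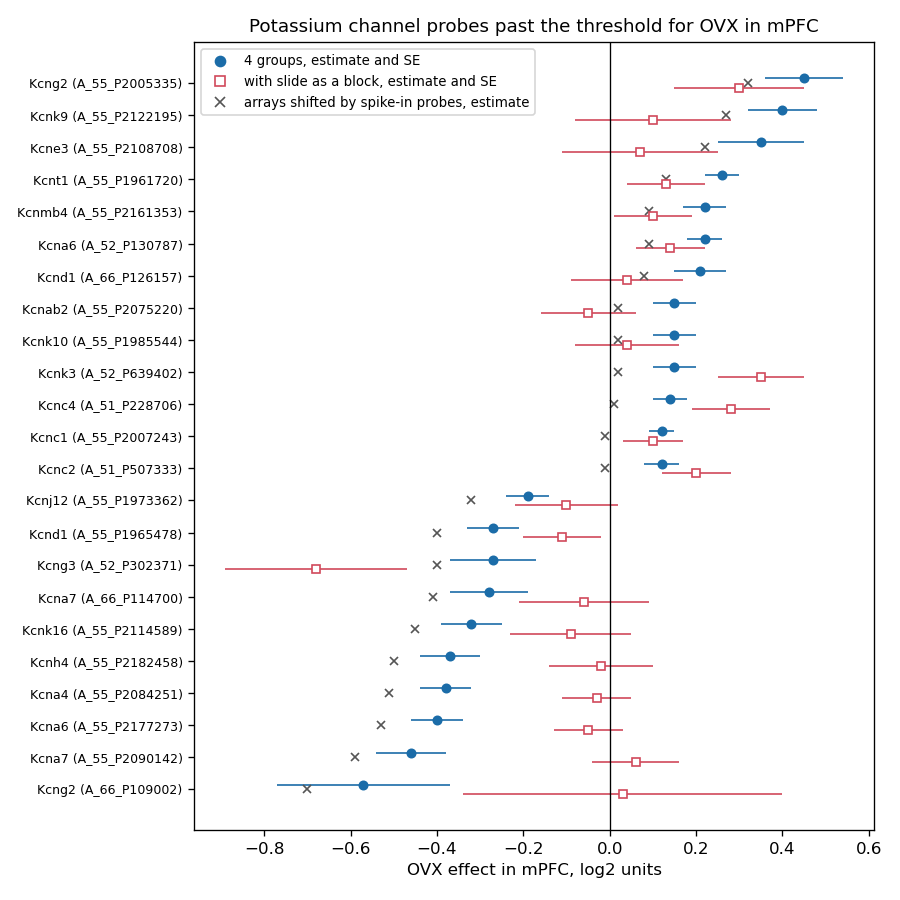
Rows are 23 of the 24 Kcn probes past the threshold for OVX in mPFC, and the x axis is the OVX effect in log2 units, as estimates with SE from 24 arrays. Filled circles are the 4-group estimates, open squares the estimates with slide as a block and crosses those with spike-in alignment; most squares lie nearer 0 than their circles, as for Kcna4 at -0.03 against -0.38.

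Of the 21 genes with several probes detected in mPFC, 7 had a probe called for OVX, 4 had several, and in 3 the called probes went opposite ways. Kcna6 was one. Its probe A_52_P130787 spanned 5.30 to 5.56 (median 5.45) for control, 5.55 to 5.72 (5.71) for CUMS, 5.73 to 5.86 (5.77) for OVX and 5.55 to 5.89 (5.81) for OVX+CUMS mice, an effect of 0.22 ± 0.04 (adjusted p = 0.000282). Its probe A_55_P2177273 read 1.02 to 1.12 (1.06), 0.55 to 1.13 (0.61), 0.39 to 0.60 (0.55) and 0.36 to 0.61 (0.53) in the same order, an effect of -0.40 ± 0.06 (adjusted p = 6.56e-05).

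Within the CUMS group the level of Kcna6 differed by slide, clearly by A_55_P2177273 and less by A_52_P130787. By A_55_P2177273 the 2 CUMS mice of slide 1 averaged 1.05, beside 1.06 for the control mice, and the 4 of slide 2 averaged 0.59, beside 0.53 for the OVX mice. By A_52_P130787 these means were 5.56 beside 5.44 and 5.71 beside 5.79, so the CUMS mice averaged above the control mice and below the OVX mice beside them. With slide as a block the OVX effect by A_52_P130787 was 0.14 ± 0.08 (limma adjusted p = 0.821). Kcnd1 showed by A_55_P1965478 the same shape as Kcna6 by A_55_P2177273. Control mice read 1.11 to 1.34 (median 1.16), CUMS mice 0.68 to 1.16 (0.73), OVX mice 0.64 to 0.87 (0.71) and OVX+CUMS mice 0.53 to 0.95 (0.76). The Kcnd1 effects were -0.27 ± 0.06 by A_55_P1965478 and 0.21 ± 0.06 by A_66_P126157 (adjusted p = 0.0106).

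Kcng2, a silent subunit, gave 0.45 ± 0.09 by A_55_P2005335 (adjusted p = 0.00084) and -0.57 ± 0.20 by A_66_P109002 (adjusted p = 0.0318). By the second of these, control mice read 1.55 to 2.66 (median 1.70), CUMS mice 0.18 to 1.91 (1.01), OVX mice 0.48 to 1.08 (0.71) and OVX+CUMS mice 0.53 to 1.95 (0.97). The CUMS mice split again by slide, averaging 1.83 on slide 1 and 0.64 on slide 2. With slide as a block the effects of this probe and of the falling Kcna6 and Kcnd1 probes were 0.03, -0.05 and -0.11.

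**Figure D3:**
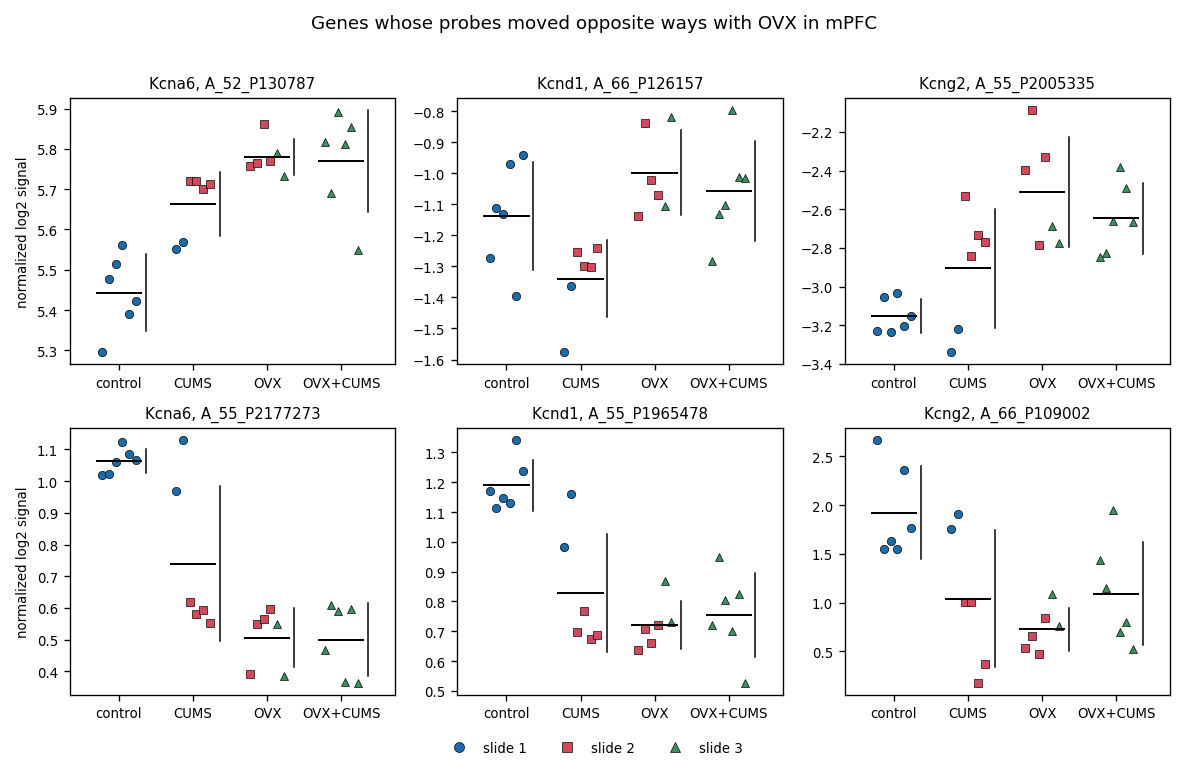
Each panel is a probe in mPFC, with normalized log2 signal on the y axis, the 4 groups on the x axis and 6 mice a group. Points are mice with colour and shape for the slide, horizontal lines are group means and vertical lines are SDs; in the lower row, the slide 1 CUMS mice (circles) sit with the control mice and the slide 2 CUMS mice (squares) with the OVX mice.

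The direct comparison within slide 2, 4 CUMS against 4 OVX mice, called 0 of the 100 Kcn probes in mPFC, against 0.0423% of all probes; 16 Kcn probes had an unadjusted p under 0.05 in limma, as had 4679 of all 28360 probes. The smallest adjusted p, 0.0932, belonged to Kcnip4 at 0.23. Of the members with well known roles that were fixed as a list of 37 genes, 34 were detected in mPFC and are read here by their brightest probe; Kcnj2, Kcnj13 and Kcnn4 were not. OVX raised 7 of the 34 (background 19.1%), Kcnab2, Kcnc1, Kcnc2, Kcnk3, Kcnk9 and Kcnt1 among them, and lowered 0 (background 11.7%), and the other 27 gave values of -0.10 to 0.12 without passing the test. Among those were Kcna1, at group medians of 4.10 in control, 4.13 in CUMS, 4.14 in OVX and 4.16 in OVX+CUMS mice, and Kcnj10, the main rectifier of astrocytes, at 4.19, 4.19, 4.16 and 4.30.

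CUMS in mPFC moved 4 of 100 Kcn probes, close to the 4.19% of all probes: 3 higher (background 2.33%) and 1 lower (1.86%). Kcna4 fell by 0.23 ± 0.06 (adjusted p = 0.0283). Kcnab2 rose by 0.20 ± 0.05 (adjusted p = 0.0405), from -2.00 to -1.80 in control mice (median -1.89) to -1.68 to -1.34 in CUMS mice (-1.52), while the ovariectomized groups had medians of -1.59 and -1.55. Kcnq3, an M-current subunit, rose by 0.18 ± 0.05 and Kcnh3 by 0.14 ± 0.04. Calls were lost for all 4 with slide as a block, at -0.06, 0.11, 0.08 and 0.08, and the count was 13 without CUMS replicate 1 and 0 without any of CUMS replicates 3 to 6, those of slide 2.

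An interaction, that is a stress effect that differed between ovariectomized and sham-operated mice, was called for 3 of 100 Kcn probes, against 4.49% of all. Of these, 2 were positive (background 3.37%) and 1 negative (1.12%). Kcnk3 was the negative one at -0.36 ± 0.10 (adjusted p = 0.0413). Its values spanned 0.80 to 0.97 (median 0.84) for control, 0.87 to 1.11 (1.04) for CUMS, 0.97 to 1.34 (1.21) for OVX and 0.72 to 1.17 (1.00) for OVX+CUMS mice, higher with stress after sham operation and lower with stress after ovariectomy. Its estimate with slide as a block was -0.29 ± 0.13. The positive ones were Kcna5 A_55_P2106891 at 0.83 ± 0.23, which became -0.02 with slide as a block, and Kcnd1 A_55_P1965478 at 0.40 ± 0.11, which became 0.08. None of the 3 passed with slide as a block (adjusted p = 1 for each), nor did any Kcn probe with slide as a random block. The count was 0 without any of 17 single mice, 5 of them control, 4 CUMS, 4 OVX and 4 OVX+CUMS, and 13 without CUMS replicate 1 or 2.

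In blood the Kcn probes moved further than in mPFC, as did all probes, and mostly down with OVX. The median absolute OVX change was 0.39 in blood and 0.10 in mPFC over the Kcn probes, against 0.29 and 0.10 over all probes. OVX changed 17 of 28 probes, against 55.1% of all detected probes, but 16 of the 17 fell (57.1% of the 28, background 27.7%) and 1 rose (background 27.4%). The median change was -0.38 over the Kcn probes and 0.04 over all probes. Aligned on spike-in probes, the median of all probes moved to 0.39 and the Kcn calls to 5 higher and 2 lower. The falls with the percentile are therefore falls relative to the other transcripts of the array, and with slide as a block 0 Kcn probes and 0 of all probes passed.

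Kcnh4, which also fell in mPFC by the same probe, spanned 1.89 to 2.40 in blood (median 2.08) for control, 1.89 to 2.59 (2.12) for CUMS, 1.33 to 1.51 (1.43) for OVX and 1.31 to 1.97 (1.75) for OVX+CUMS mice. No OVX mouse reached any sham-operated mouse, while the OVX+CUMS mice overlapped all other groups. The OVX effect was -0.57 ± 0.09 (adjusted p = 9.87e-05), -0.22 with spike-in alignment and -0.37 with slide as a block (adjusted p = 0.791). On slide 2 alone the 4 CUMS mice averaged 2.04 and the 4 OVX mice 1.42.

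Kcnma1, the BK pore, spanned -0.35 to 1.21 (median 0.03) for control, -0.21 to 1.44 (0.49) for CUMS, -1.28 to -0.78 (-0.95) for OVX and -1.08 to 0.20 (-0.46) for OVX+CUMS mice. Its OVX effect was -1.02 ± 0.18 (adjusted p = 0.000251), and -0.92 (adjusted p = 0.00037) without control replicate 2, which read 1.21 against at most 0.09 in the other control mice. With slide as a block the Kcnma1 effect was -0.22 ± 0.37 (limma adjusted p = 0.948), and with spike-in alignment it was -0.67. Kcne1l A_55_P2172832, an auxiliary subunit, fell by 0.62 and Kcnd1 A_55_P1965478 by 0.62. Kcna5 A_55_P2106891 fell by 0.58 and Kcna6 A_55_P2177273 by 0.56. Kcnn3, an SK channel, fell by 0.73 and Kcnd3 by 0.72, but with slide as a block these stood at 0.01 and 0.27. The other probes of Kcnma1, Kcne1l, Kcnd1, Kcna5, Kcna6, Kcnn3 and Kcnd3 were not detected in blood, so these falls are those of single probes. Mean processed signals in blood were 97.6 for the Kcnma1 probe read here and 3.03 and 3.68 for its others. For Kcnd3 they were 708 and 3.43. Kcnj5, a G-protein-gated rectifier, fell by 0.47 (adjusted p = 0.0428), or by 0.64 (adjusted p = 0.000616) without control replicate 2. The only rise was that of Kcne3 at 0.44 ± 0.16 (adjusted p = 0.0213), with medians of -2.02 in control, -1.10 in CUMS, -1.27 in OVX and -1.10 in OVX+CUMS mice.

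Stress moved blood Kcn probes the other way. CUMS changed 9 of 28, against 48.5% of all, with 8 higher (28.6% of the 28, background 19.1%) and 1 lower (29.4%), and a median of 0.16 over the Kcn probes and -0.03 over all. Slide 1 held stressed and unstressed mice after sham operation and slide 3 after ovariectomy, so the effect could also be taken within slides. The estimate with slide as a block rests on these 2 slides alone, with only 2 CUMS mice on slide 1 and only 2 OVX mice on slide 3. Of those CUMS mice, replicate 2 had the lowest 75th percentile of all blood arrays, 54.9, and the fewest probes well above background, 23606. With slide as a block 15 Kcn probes passed, 14 higher and 1 lower, against 49.7% of all probes, 21.9% higher and 27.8% lower. Aligned on spike-in probes without the block, the count was 2, both higher.

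Kcnk3, the acid-sensitive leak channel, spanned 0.10 to 1.06 (median 0.39) for control, -0.07 to 1.57 (0.98) for CUMS, -0.24 to 0.46 (0.16) for OVX and 0.55 to 1.18 (0.81) for OVX+CUMS mice. Among ovariectomized mice the stressed and unstressed did not overlap, whereas among sham-operated mice they did. The CUMS effect was 0.59 ± 0.15 (adjusted p = 0.00445), with differences of 0.76 within slide 1 and 0.87 within slide 3. Kcne1l rose by 0.54 ± 0.11 (adjusted p = 0.00125), by 0.58 within slide 1 and by 0.69 within slide 3. Kcnk13, a leak channel, rose by 0.72 ± 0.23, and its CUMS mice spread from -1.37 to 1.74. Kcne3 rose by 0.56, Kcnk9 by 0.40, Kcnk16 by 0.34 and Kcna6 by 0.28. With slide as a block Kcnma1 gave 0.80 ± 0.24 (adjusted p = 0.0135), while Kcne3 lost its call at 0.44 (adjusted p = 0.0823).

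The single fall with CUMS was that of Kcnn4, the channel of red cells and lymphocytes. It spanned 0.80 to 1.23 (median 0.84) for control, 0.65 to 1.08 (0.82) for CUMS, 0.89 to 1.15 (0.99) for OVX and 0.01 to 0.81 (0.55) for OVX+CUMS mice. All 6 OVX+CUMS mice lay below all OVX mice, while control and CUMS mice overlapped. The effect was -0.30 ± 0.08 (adjusted p = 0.0064), and -0.29 ± 0.12 with slide as a block. Kcna3, the T cell channel, passed no test, with an OVX effect of -0.08 and a CUMS effect of -0.18, and group medians between -0.80 and -0.60.

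**Figure D4:**
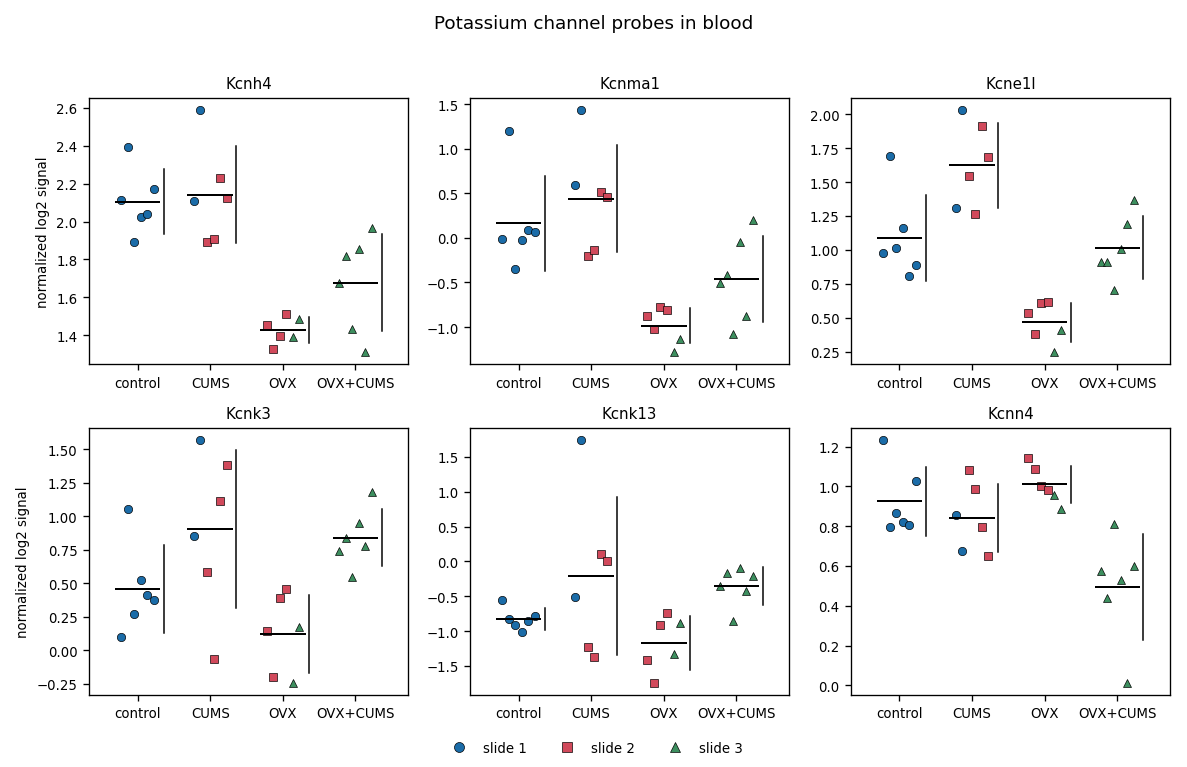
Each panel is a Kcn probe in blood, with normalized log2 signal on the y axis, the 4 groups on the x axis and 6 mice a group. Points are mice with colour and shape for the slide, horizontal lines are means and vertical lines SDs; OVX mice have the lowest mean for Kcnh4, Kcnma1, Kcne1l, Kcnk3 and Kcnk13, and OVX+CUMS mice for Kcnn4.

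The comparison that shares a slide, CUMS against OVX mice on slide 2, called 11 of the 28 blood probes, against 52.2% of all. All 11 were higher in CUMS mice (39.3% of the 28, background 24.4%) and 0 lower (27.9%), with a median of 0.49 over the Kcn probes and 0 over all. Kcne1l stood 1.07 ± 0.15 higher (adjusted p = 0.00681; n = 4 mice a group, limma), and Kcnma1 1.03 ± 0.19. Kcnj5 was 0.83, Kcna5 0.78, Kcnk9 0.77, Kcna6 0.73, Kcnd1 0.69, Kcnk16 0.68, Kcnh4 0.62 and Kcnh3 0.44 higher. Each of the 11 calls held when any of the 8 mice was left out, but with spike-in alignment 3 were called. The comparison sets stress against ovariectomy, so it does not separate one from the other. No interaction was called in blood: 0 of 28 Kcn probes, against 1.42% of all (1.29% positive and 0.13% negative), and the smallest adjusted p was 0.0505, for Kcna4 at 0.65.

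**Figure D5:**
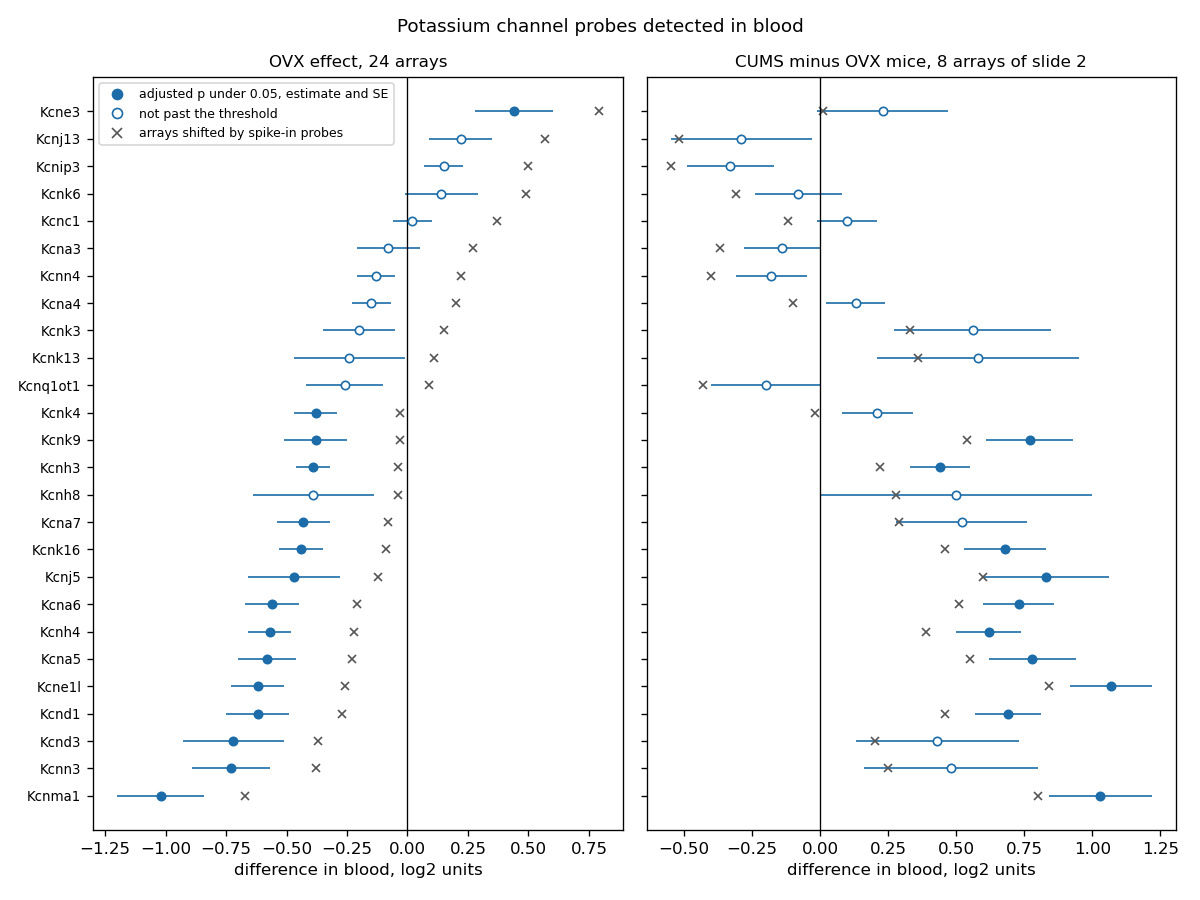
Rows are 26 of the 28 Kcn probes detected in blood, ordered by OVX effect, and both x axes are differences in log2 units with SE. The left panel is the OVX effect over 24 arrays and the right panel CUMS minus OVX mice over the 8 arrays of slide 2; filled circles passed the threshold and crosses are the estimates with spike-in alignment, which lie to the right on the left and to the left on the right.

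Markers of some blood cells moved with the same contrasts, while 0 of the 5 neutrophil markers passed for OVX, for CUMS or on slide 2. Over all blood probes, OVX raised 27.4% and lowered 27.7%, and CUMS raised 19.1% and lowered 29.4%. On slide 2, 24.4% were higher and 27.9% lower in CUMS mice. Of the 6 erythroid markers, 5 fell with OVX and 5 rose with CUMS, with medians of -0.53 and 0.45, and all 6 were higher in CUMS than OVX mice on slide 2, with a median of 0.67. Their summed log2 level spanned 13.43 to 14.16 for control, 13.72 to 14.66 for CUMS, 12.90 to 13.55 for OVX and 13.25 to 13.68 for OVX+CUMS mice. B cell markers went the other way: 3 of 5 rose with OVX and 4 of 5 fell with CUMS, and their level was 7.63 to 8.17, 7.04 to 7.84, 8.27 to 8.56 and 7.02 to 8.29 in the same order. Of the 5 T cell markers, 2 fell with OVX and 3 with CUMS, and 4 of 5 platelet markers were higher in CUMS than OVX mice on slide 2. In mPFC, 4 of 5 microglia markers rose with OVX (background 19.1%), with a median of 0.16. Their level was 5.73 to 5.86 in control, 5.72 to 6.09 in CUMS, 5.89 to 6.10 in OVX and 5.85 to 6.16 in OVX+CUMS mice. Of the 5 neuron markers 1 rose and 1 fell with OVX in mPFC, and 0 of the astrocyte, oligodendrocyte, endothelium and pericyte markers passed. Among the 5 striatum markers 1 rose, and among the 3 choroid plexus markers detected 1 fell. The summed striatum level had medians of 3.98 in control, 3.92 in CUMS, 4.32 in OVX and 3.88 in OVX+CUMS mice. The 2 T cell markers detected in mPFC had a summed level of 3.28 to 3.51 in control, 2.59 to 3.48 in CUMS, 2.52 to 2.76 in OVX and 2.61 to 2.81 in OVX+CUMS mice. The part of these cell types in the Kcn differences was not tested.

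Effects were then compared between tissues within the same mice, over the 24 probes detected in both. The OVX effect differed for 12 of 24, against 37.2% of all probes, 11 more positive in mPFC (background 19.1%) and 1 less (18.1%). The sizes included 1.11 for Kcnma1, 0.85 for Kcnn3, 0.83 for Kcnd3 and 0.78 for Kcnk9, and -0.23 for Kcna4. With spike-in alignment the calls were 2 more positive and 4 less, and with slide as a block 0 passed. The CUMS effect differed for 11 of 24, against 50.4% of all probes, 0 more positive in mPFC (31.8%) and 11 less (18.6%). Kcnk13 at -0.78, Kcne1l at -0.70 and Kcnk3 at -0.61 led these. With spike-in alignment 0 Kcn probes passed, and only 30 of all probes, while those 3 estimates were -0.71, -0.64 and -0.55. With slide as a block they were -1.18, -0.55 and -0.74 and passed (limma adjusted p = 0.0201, 0.0302 and 0.023). Kcna5, Kcna7, Kcnk16 and Kcnh4 lost their calls with the block, which rests on slides 1 and 3 alone. Kcna4, Kcna5, Kcnd1, Kcne1l and Kcnk9 had a call for the difference in OVX effect and for that in CUMS effect.

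The partners of these channels were followed through a list of 21 genes, which held the Dpp, Amigo, Lgi and Dlg type proteins that bind Kv channels, the sulphonylurea receptors and the Hcn pacemaker channels. In mPFC 18 of the 21 were detected; OVX raised 2 (background 19.1%) and lowered 4 (11.7%), and CUMS moved 0. In blood 7 were detected; OVX raised 0 (background 27.4%) and lowered 6 (27.7%), CUMS raised 2 (19.1%), and on slide 2 CUMS mice were higher for 4 (24.4%) and lower for 0. Of 11 sodium-potassium pump subunits and cation-chloride cotransporters, all were detected in mPFC, where OVX lowered 1 and CUMS moved 0. In blood 7 of the 11 were detected; OVX raised 2 and lowered 2, CUMS lowered 5 (background 29.4%) and raised 0, and slide 2 gave 3 lower in CUMS mice. For OVX, 0 of all detected probes passed in either tissue with slide as a block.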

How the data were processed

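Total RNA of whole blood and mPFC was labelled with Cy3 and hybridized to a 1-color Agilent mouse array. The intensity of each spot was quantified by the authors with Feature Extraction (version 10.7.3.1 in all 48 file headers), which subtracts background and gives the processed signal. The deposited table of log2 values, made by the authors in GeneSpring with a shift to the 75th percentile, equalled log2 processed signal minus the 75th percentile of the array within a tolerance of 0.001 in 100% of values of probes with 1 spot, and the scanner signals were used here. Control spots were left out and spots of a probe averaged; probes called outliers counted as not detected. The filter on detection was modelled on that of the study, with the scanner's well-above-background flag and processed signal in place of GeneSpring flags and raw intensity, so the probes that pass can differ.

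Groups came from the sample labels. The test was limma (version 3.58.1, R 4.3.3) on log2 values over all detected probes (28360 in mPFC and 20768 in blood), with OVX, CUMS and their interaction coded so that each main effect is averaged over the other factor, and Benjamini-Hochberg adjustment over all of them. Differences between tissues were taken within each mouse, with mice matched by group and replicate number, a match that the sample titles do not spell out. The spread covers 6 mice a group, and the number of arrays limits the precision. Alternatives were background correction (normexp), quantile normalization, the percentile over detected probes, alignment on E1A spike-in probes, other detection filters, slide or replicate number as a block, and each mouse left out. The fit was tested on simulated data. Figures were drawn with matplotlib (version 3.10.9).

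The members, the gene lists and the tests were chosen with earlier results of these data known. Named were 37 Kcn genes with well known roles, the 8 largest rises and falls among calls of each comparison, calls for the interaction, and genes whose probes moved opposite ways; some of these are not reported here, though the counts include them, and others named in the text were chosen after their values were seen. Gene names are those of the array design, and 129 of the 143 Kcn probes matched a RefSeq transcript (GRCm38 table, used for names only).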

Additional observations from a re-analysis of the deposited data

Results flagged for a closer look

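In 9 of the 188 groups of Kcn values screened, a single mouse stood apart from the rest, and chance gives about 5%. In mPFC, Kcnt1 read 1.34 in CUMS replicate 2 against 1.57 to 1.67 in the other CUMS mice, and Kcnd1 A_66_P126157 read -1.58 in CUMS replicate 1 against -1.36 to -1.24. Kcnq3 read -0.96 in OVX+CUMS replicate 6 against -0.65 to -0.54, and Kcna7 A_55_P2090142 read -0.10 in OVX+CUMS replicate 3 against -0.56 to -0.45. In blood, 4 of the 5 such values came from control replicate 2. There Kcnma1 read 1.21 against -0.35 to 0.09, Kcnd1 3.56 against 2.89 to 3.14, Kcna6 2.40 against 2.00 to 2.14, and Kcnj5 -1.63 against 0.19 to 0.64. Kcne3 read -0.21 in OVX+CUMS replicate 5 against -1.27 to -0.97. Without control replicate 2 the blood counts were 17 for OVX (1 higher, 16 lower) and 12 for CUMS (11 higher, 1 lower), and Kcnma1 passed for CUMS at 0.51 (limma adjusted p = 0.0135).

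The stress effect differed between ovariectomized and sham-operated mice in mPFC for Kcnk3 at -0.36, Kcnd1 A_55_P1965478 at 0.40 and Kcna5 A_55_P2106891 at 0.83, by the interaction term. These were -0.29, 0.08 and -0.02 with slide as a block, and none passed with slide as a block or as a random block. The OVX effect differed between mPFC and blood, by a test of the difference within mice, for Kcnma1 at 1.11, Kcnn3 at 0.85, Kcnd3 at 0.83, Kcnk9 at 0.78, Kcne1l at 0.52, Kcnh3 at 0.46, Kcnk4 at 0.39, Kcnd1 at 0.35, Kcna5 at 0.31 and Kcna4 at -0.23. For Kcnk9 the effects had opposite signs, 0.40 in mPFC and -0.38 in blood. The CUMS effect differed for Kcnk13 at -0.78, Kcne1l at -0.70, Kcnk3 at -0.61, Kcna7 at -0.47, Kcna5 at -0.46, Kcna6 at -0.45, Kcnk16 at -0.39, Kcna4 at -0.37, Kcnd1 at -0.35, Kcnk9 at -0.34 and Kcnh4 at -0.29.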

How the results depend on the processing

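Of 3556 values of the called Kcn probes reported here under the alternatives, 3063 kept direction and call, 458 kept the direction only and 35 changed sign; the causes were not tested. With slide as a block the counts were 0 for OVX, CUMS and the interaction in mPFC, 0 for OVX in blood, 0 for the tissue difference in OVX effect and 15 for CUMS in blood. With slide as a random block they were 5 for OVX, 0 for CUMS and 0 for the interaction in mPFC, and 10 for OVX in blood. Within slide 1 or slide 3 alone, 0 probes passed for CUMS in either tissue. Spike-in alignment gave, in mPFC, 8 for OVX, 0 for CUMS and 0 for the interaction; in blood, 7 for OVX, 2 for CUMS and 3 within slide 2; and 6 and 0 for the tissue differences in OVX and CUMS effects. It moved the median over all probes from 0.04 to 0.39 for OVX in blood and from 0.04 to -0.09 in mPFC. Normexp correction gave 7 for CUMS and 1 for the interaction in mPFC and 4 for the interaction in blood, where quantile normalization gave 2. The percentile over detected probes gave 1 for CUMS in mPFC. With the spread of each probe alone the interaction in mPFC had 0. Without a detection filter the mPFC counts were 0 for CUMS, 0 for the interaction and 4 within slide 2. The blood counts were then 48 for OVX, 17 for CUMS and 17 within slide 2, with 134 for level and 31 for the difference in OVX effect. Over probes detected on all 48 arrays, mPFC had 10 for OVX, 2 for CUMS and 5 for the interaction, and blood 1 for the interaction. Asking for detection in at least 1 group gave 49 probes detected in blood, 26 called for OVX, 16 for CUMS, 39 for level and 17 for the difference in CUMS effect.

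By the median, same-numbered mice of different groups deviated together little (r of 0.04 in mPFC and -0.09 in blood over 36 pairs, against 0 and 0.01 for other pairs). Single pairs ranged from -0.23 to 0.39 in mPFC and from -0.51 to 0.49 in blood, with 16 and 10 of the 36 over 0.1. In each tissue 7 of 24 arrays were closest to an array of their own number. The replicate block gave 23 calls for OVX in mPFC, 16 for OVX and 11 for CUMS in blood, and 4 within slide 2 in blood.

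Leaving out each mouse in turn, calls ranged in mPFC from 20 to 27 for OVX, 0 to 13 for CUMS and 0 to 13 for the interaction, and were 0 each time within slide 2. In blood they ranged from 15 to 18 for OVX, 7 to 12 for CUMS, 0 to 6 for the interaction (6 without CUMS replicate 2) and 11 to 14 within slide 2. Between tissues they ranged from 23 to 24 for level, 11 to 13 for the OVX and 9 to 15 for the CUMS difference (15 without control replicate 2). Detected probes ranged from 100 to 101 in mPFC and 27 to 30 in blood.

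The sign changed with slide as a block for OVX in blood in Kcnd3 (0.27), Kcnk4 (0.16) and Kcnn3 (0.01), for OVX in mPFC in Kcna7 A_55_P2090142 (0.06), Kcnab2 (-0.05) and Kcng2 A_66_P109002 (0.03), for the interaction in Kcna5 (-0.02), and for the tissue difference in OVX effect in Kcnd3 (-0.28), Kcnk4 (-0.03) and Kcnn3 (-0.02). Spike-in alignment turned that difference in Kcna5 (-0.17), Kcnd1 (-0.13), Kcnh3 (-0.02) and Kcnk4 (-0.09), and OVX in mPFC in Kcnc1 (-0.01) and Kcnc2 (-0.01). Within slide 3, CUMS in mPFC turned in Kcna4 (0.03) and Kcnab2 (-0.03). The level in mPFC minus blood turned after quantile normalization in Kcna3 (1.66), Kcna4 (1.38), Kcna6 (1.33), Kcnd1 (0.64), Kcne3 (0.49), Kcnh4 (0.91), Kcnk13 (2.05), Kcnk16 (0.49), Kcnk4 (2.12) and Kcnq1ot1 (1.69), and with spike-in alignment in Kcna3 (1.00), Kcna4 (0.71), Kcna6 (0.65), Kcnh4 (0.24), Kcnk13 (1.38), Kcnk4 (1.45) and Kcnq1ot1 (1.01). The Kcn probes detected in blood had a median signal of 158, against 205 over all probes detected there; it was 332 for those that fell with OVX and 76.5 for the rest.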
